A study of Mus musculus with 4 samples.

Results

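The numbered zinc finger protein genes of the mouse, whose symbols are Zfp followed by a number, were examined in embryonic stem cells with and without the microRNA genes of the miR-290 to miR-295 cluster. Of 365 protein-coding genes with such a symbol among 55421 gene identifiers, 18 had 0 counts, 195 had counts but fewer than 500 in sum over the 4 libraries, and 152 had at least 500. Zfp36, Zfp42 and Zfp521 were left out by name, of which 2 had at least 500 counts, so that 150 genes entered. The members were thus chosen on their summed count over both groups, and their levels are given as a description. Just outside the limit lay Zfp869 with 485 counts and Zfp646 with 480, and just inside it Zfp975 with 502 and Zfp787 with 504, and none of these 4 passed the test between the groups.

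The cells were E14 embryonic stem cells from a 129/Ola blastocyst, kept on gelatin in medium with serum and LIF. One group lacked the microRNA cluster (KO, n = 2 libraries) and the other was wild type (WT, n = 2 libraries). Both were grown alike and had no other stated treatment. Poly(A) RNA was read near its 3′ end, and levels are CPM (counts scaled to a common library total) on the TMM scale of edgeR, which corrects library totals for composition. The libraries are called biological duplicates in the study's design, and it is not said whether the KO libraries came from separate clones, and the p-values therefore reflect only how far the deposited libraries vary, which may be technical.

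Most of these genes encode proteins with tandem C2H2 zinc fingers, each finger holding a zinc ion and contacting a few bases of DNA. Many carry a KRAB box as well, which recruits the co-repressor TRIM28 (also called KAP1) and, through it, histone methylation and heterochromatin. In embryonic stem cells such proteins are known for silencing retrotransposons and for protecting the methylation of imprinted regions. The KRAB genes arose by repeated local duplication and often lie in chromosome clusters of close relatives.

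Of the microRNAs removed in KO, 6 of the 3p arms are shown first, and the seed shared by 3 of them defines the sites searched for. The 5p arms have other seeds and are not printed. The 6 arms lie on the plus strand of chromosome 7, from miR-290a-3p at chr7:3218674-3218697 to miR-295-3p at chr7:3220815-3220837 (RefSeq, GRCm38.p6). Capitals mark the seed, bases 2 to 8. The seed of miR-291a-3p, miR-294-3p and miR-295-3p pairs with AGCACTT, and the other 3 arms printed differ from it within the seed. The sites that match the full seeds of those other 3 arms were not searched.
miR-291a-3p: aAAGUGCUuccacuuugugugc
miR-294-3p: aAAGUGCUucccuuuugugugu
miR-295-3p: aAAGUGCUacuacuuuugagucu
miR-290a-3p: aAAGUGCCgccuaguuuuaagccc
miR-291b-3p: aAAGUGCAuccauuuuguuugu
miR-293-3p: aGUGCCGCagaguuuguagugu

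The 7-base sites AGCACTT and GCACTTA, and the 8-base site AGCACTTA that contains both, were searched on the transcribed strand of the longest 3′ UTR of each gene in GENCODE vM21. The windows below are those of the 4 members that rose in KO and hold a site, with the site in capitals. Their start is counted from the first base of the 3′ UTR.
Zfp148, base 902 of 7019: gttgacatagAGCACTTAgaatta
Zfp148, base 2117 of 7019: ggttccactgAGCACTTgatgca
Zfp422, base 47 of 2307: tttacagtagAGCACTTAgatacc
Zfp704, base 4335 of 11767: agatgaggttAGCACTTttaggt
Zfp704, base 6806 of 11767: gaactagcagGCACTTAggtgtt
Zfp827, base 2330 of 4117: gtttctgtgcAGCACTTtattgc
Zfp827, base 3488 of 4117: caacttttttAGCACTTtggaaa
Zfp827, base 3827 of 4117: tagggttctaAGCACTTtctctc

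The libraries held 12726123 and 11764868 counts in KO and 12163759 and 9925557 in WT. The 7 plus-strand microRNA genes of the deleted cluster held 0 counts in both KO libraries and 88 and 39 in WT 1 and WT 2. Pou5f1, which marks embryonic stem cells, lay at 31.6 and 36.7 CPM in KO and at 33.1 and 37.2 in WT. Of 8 such markers 1, Klf4, was lower in KO. In 4 of the 8 both KO libraries lay above both WT libraries, which held for 29.4% of all genes tested. None of these 4 passed the test. Of 9 markers of primitive endoderm, 7 were lower in KO, and their summed level was 93.7 and 74.0 CPM in KO against 305 and 292 in WT. Of 7 markers of the 2-cell-like state, 4 could be tested and 2 were higher in KO, with summed levels of 8.57 and 14.1 CPM in KO against 3.12 and 1.51 in WT. Of 3 neural markers 1, Pax6, was higher in KO, with a summed level for the 3 of 27.03 and 33.0 CPM against 9.21 and 13.7. Of 6 fibroblast markers, 4 could be tested and 3 were lower in KO. The summed level of the 4 was 267 and 357 CPM in KO and 244 and 254 in WT. Most of that sum was Vim, which is not among the 3, with 252 and 332 CPM in KO and 206 and 188 in WT. The part of these markers in the results below was not tested. In bulk RNA, fewer cells of a type and less RNA per cell cannot be told apart.

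The numbered Zfp genes were modest in level, and as a family they differed little between KO and WT. Their mean level ranged from 10.8 to 376 CPM, with a median of 23.8. Together they took 0.686% and 0.719% of all counts in KO and 0.711% and 0.641% in WT, so the groups overlapped. The most abundant were Zfp106, an RNA-binding protein, with 369 and 336 CPM in KO and 402 and 398 in WT, followed by Zfp706, Zfp207, Zfp292 and Zfp281. Zfp281, a factor of the pluripotency network, lay at 219 and 239 CPM in KO and at 247 and 211 in WT. Zfp207, which acts at the mitotic spindle, lay at 290 and 298 CPM in KO and at 325 and 244 in WT. In both of these genes the KO libraries lay within the range of the WT libraries.

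**Figure D1:**
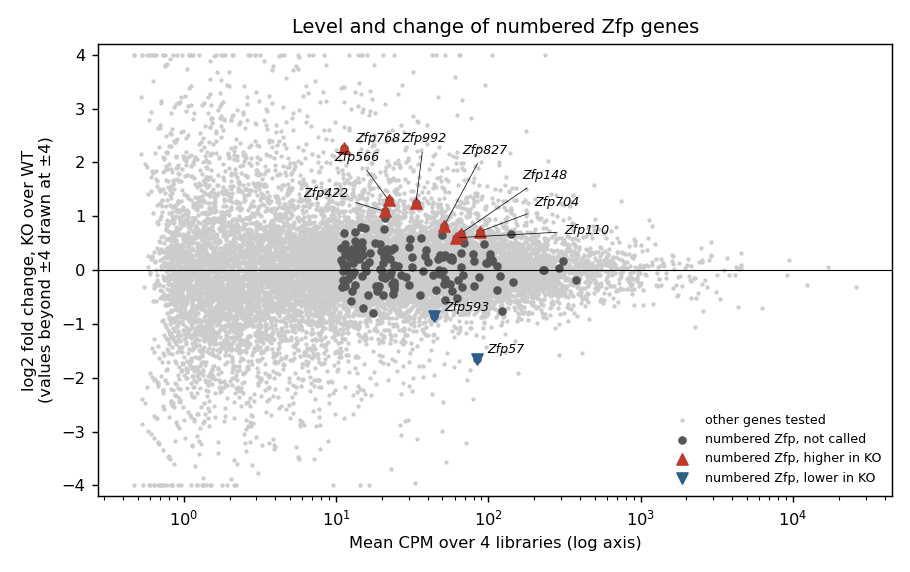
Each numbered Zfp gene (dark points, red and blue triangles where it passed the test) and every other gene tested (grey) by its mean CPM over the 4 libraries (log axis) and its log2 fold change of KO over WT. Most of the family lies close to 0, with 121 of 150 genes within 0.5 on the log2 scale. The 5 members that changed at least 2-fold are Zfp768, Zfp566, Zfp992 and Zfp422 above and Zfp57 below.

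Of the 150 genes, 8 rose and 2 fell in KO at an adjusted p of 0.05 (edgeR's quasi-likelihood test with Benjamini-Hochberg adjustment over 14427 genes). These are 5.33% and 1.33% of the members. Among all genes tested 7.42% rose and 4.96% fell, and among protein-coding genes with at least 500 counts 9.01% rose and 4.7% fell. The members' shares were therefore below both backgrounds. At an unadjusted p under 0.05 there were 20 higher and 7 lower members. The share over all genes tested was not counted at this limit, so these 20 and 7 have no background. Both KO libraries lay above both WT libraries in 51 members, or 34%, where the same held for 29.4% of all genes tested and 31.9% of protein-coding genes with at least 500 counts. Both lay below in 26 members, or 17.3%, against 28.5% and 27.6% in those backgrounds. The standard error of a member's log2 fold change had a median of 0.23, and the smallest change that passed was 0.60. With 1 library left out, the median log2 fold change of the members was 0.13 without KO 1 and 0.07 without KO 2. It was 0.19 without WT 1 and 0.01 without WT 2. Over all genes tested the same medians stayed between -0.01 and 0.01.

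Zfp768 showed the largest rise of the family. This gene encodes a protein with 10 finger matches and lies at chr7:127342795-127345589 (GRCm38, minus strand). It measured 16.9 and 20.5 CPM in the KO libraries and 3.67 and 4.08 CPM in the WT libraries. Both KO libraries were well above both WT libraries, and the log2 fold change was 2.27 (SE 0.29, edgeR adjusted p = 0.002). It passed the test without any 1 library, with log2 fold changes from 2.13 to 2.41.

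Zfp992 belongs to the group of KRAB genes near the distal end of chromosome 4, which is known for repressors of retrotransposons (chr4:146449023-146470292). It measured 47.9 and 45.9 CPM in KO and 17.9 and 21.99 CPM in WT, with no overlap of the groups. Its log2 fold change was 1.24 (SE 0.20, adjusted p = 0.00616), and it also passed without any 1 library. In the last 400 bases of its annotated transcripts no run of 50 bases was found in another annotated gene.

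Zfp566, a KRAB gene at chr7:30077337-30090527, measured 40.3 and 22.8 CPM in KO and 13.6 and 12.1 CPM in WT. The KO libraries differed from each other by more than the WT libraries did, yet both lay above WT. Its log2 fold change was 1.29 (SE 0.29, adjusted p = 0.0216), and without KO 1 it was 0.83 with an adjusted p of 0.222. Zfp422, at chr6:116624016-116628999, measured 29.6 and 27.2 CPM in KO and 15.1 and 11.5 CPM in WT, again without overlap. Its log2 fold change was 1.09 (SE 0.24, adjusted p = 0.0186), and the adjusted p was 0.098 without KO 1 and 0.058 without KO 2.

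The other 4 members that rose changed by less than 1 on the log2 scale, and none of their groups overlapped. Zfp827, known as a partner of the NuRD complex at telomeres (chr8:79028437-79193766), measured 62.6 and 68.4 CPM in KO and 37.7 and 36.3 in WT, a log2 fold change of 0.82 (adjusted p = 0.0174). Zfp704, at chr3:9427020-9610085, measured 108 and 111 CPM in KO and 70.0 and 63.5 in WT (log2 fold change 0.72, adjusted p = 0.0204). Zfp148, which binds GC-rich promoters (chr16:33380836-33504363), measured 71.2 and 90.9 CPM in KO and 49.99 and 51.2 in WT (log2 fold change 0.68, adjusted p = 0.0408). The KO libraries of Zfp148 differed the most among these 4. Zfp110, also named NRIF, which binds the neurotrophin receptor p75 (chr7:12834761-12850577), measured 74.0 CPM in both KO libraries and 52.1 and 45.5 in WT (log2 fold change 0.60, adjusted p = 0.0497).

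These 4 calls did not survive the loss of a KO library. Without KO 1 and without KO 2 the adjusted p was 0.074 and 0.140 for Zfp827, 0.120 and 0.144 for Zfp704, and 0.074 and 0.381 for Zfp148. Zfp110 was called in 1 of the 4 fits that leave out a library, the one without WT 1. Its transcript ends share 0.855% of their 50-base runs with the close relative Zfp369, and those of Zfp148 share 1.24% with the pseudogene Zfp148-ps1. Those of Zfp422, described above, share 5.84% with other genes, among them Rexo5 and Ttc3.

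**Figure D2:**
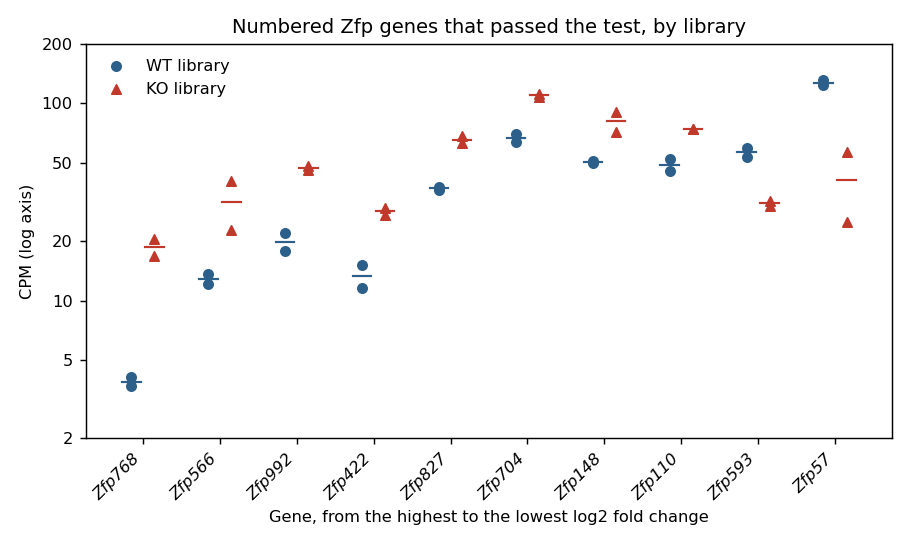
CPM (log axis) of the 10 numbered Zfp genes that passed the test, with each WT library as a blue circle, each KO library as a red triangle and a short line at the mean of each pair. In the first 8 genes both triangles lie above both circles, and in Zfp593 and Zfp57 both lie below. The KO libraries of Zfp57, at 25.02 and 56.5 CPM, and of Zfp566, at 40.3 and 22.8 CPM, lie far apart.

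Zfp57 fell the most. It encodes the KRAB protein that binds a methylated sequence at imprinted control regions and protects their methylation (chr17:37001163-37010635). It measured 25.02 and 56.5 CPM in KO and 123 and 131 CPM in WT. Both KO libraries lay far below WT but also apart from each other, with a mean of 40.8 ± 22.3 CPM (SD, n = 2) against 127 ± 5.49. The log2 fold change was -1.64 (SE 0.31, adjusted p = 0.0116), and it ranged from -2.34 without KO 2 to -1.17 without KO 1, passing the test each time. Its longest 3′ UTR held no 7-base site.

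Zfp593 was the other member that fell. It is related to a factor for export of the large ribosomal subunit from the nucleus, and its longest protein of 134 residues holds 1 finger match (chr4:134243289-134245592, minus strand). It measured 32.0 and 30.3 CPM in KO and 53.6 and 59.4 CPM in WT, and the groups did not overlap. The log2 fold change was -0.86 (SE 0.18, adjusted p = 0.0173), with an adjusted p of 0.101 without KO 1 and 0.139 without KO 2. An exon of E130218I03Rik on the opposite strand overlaps its 3′ end. The strand setting of the counting is not given, so reads of the 2 genes cannot be told apart. In all, 15 members had such an overlap, among them Zfp106, Zfp706, Zfp428, Zfp459 and Zfp687.

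The genes with a known role in silencing were described next, whatever their change. Zfp445, which acts beside Zfp57 at imprinted regions, measured 67.4 and 75.7 CPM in KO and 101 and 76.0 in WT (log2 fold change -0.31, SE 0.19, adjusted p = 0.324). Zfp568, which represses a placental promoter of Igf2, measured 67.8 and 117 CPM in KO and 187 and 125 in WT. Its libraries spread widely within both groups, and its log2 fold change of -0.76 had an adjusted p of 0.0990, and it passed in 2 of the 4 fits that leave out a library. Zfp809, which silences retroviruses through their primer binding site, overlapped between the groups, with 34.4 and 53.8 CPM in KO and 40.4 and 28.0 in WT (log2 fold change 0.36, adjusted p = 0.412). Zfp638, which brings the HUSH complex to unintegrated retroviral DNA, measured 165 and 180 CPM in KO and 137 and 80.0 in WT (log2 fold change 0.67, adjusted p = 0.0893). It passed without WT 1, at 1.10, and was 0.33 without WT 2. With all 4 libraries, Zfp57 was the only one of these 5 that passed the test.

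Members named for a role other than silencing, and not yet described, did not pass the test. Zfp609, a partner of the Integrator complex and of the cohesin loader Nipbl, came closest to the threshold on the lower side, with 12.4 and 13.2 CPM in KO and 21.8 and 22.7 in WT. Its log2 fold change was -0.79 (SE 0.23, adjusted p = 0.0525), and its groups did not overlap. Zfp326, a subunit of a complex that links RNA polymerase II to splicing, measured 62.6 and 59.1 CPM in KO and 33.97 and 43.7 in WT (log2 fold change 0.65, adjusted p = 0.0569). Zfp592 and Zfp687 belong to one chromatin complex with ZMYND8. Zfp592 measured 25.3 and 26.5 CPM in KO and 17.4 and 13.1 in WT (log2 fold change 0.76, adjusted p = 0.0638). Zfp687 had a log2 fold change of 0.43 (adjusted p = 0.307), and 0.82 without WT 2 (adjusted p = 0.025). When 1 WT library was left out, Zfp609 (without WT 1), Zfp326 (without WT 2) and Zfp592 (without WT 1) passed as well.

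Further from the threshold lay Zfp91, an E3 ubiquitin ligase, with a log2 fold change of 0.50 (adjusted p = 0.159), or 0.80 without WT 1. The SUMO ligase Zfp451 had 0.30 (adjusted p = 0.252), where all genes tested on its chromosome 1 had a median of 0.27. Zfp143, an activator bound at many promoters, had -0.28 (adjusted p = 0.419). Zfp410, the activator of the NuRD gene Chd4, had 0.24 (adjusted p = 0.576), and Zfp598, which marks collided ribosomes, had 0.14 (adjusted p = 0.618). Zfp296, a factor of reprogramming, measured 39.5 and 61.2 CPM in KO and 88.2 and 43.4 in WT, so that the groups overlapped. Zfp462, which acts with the histone methyltransferases G9a and GLP, measured 106 and 125 CPM in KO and 124 and 123 in WT.

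The log2 fold changes of the family had a median of 0.13, where it was -0.01 for all genes tested and 0.02 for protein-coding genes with at least 500 counts. Of the 150 members, 89 lay above 0 and 61 below. The median was 0.12 with DESeq2 size factors and 0.12 with library totals alone, so the scaling did not turn its direction. It rested on 1 WT library. Against WT 2 the median log2 ratio of the members was 0.14 for KO 1 and 0.18 for KO 2, and against WT 1 it was -0.01 and 0.03. WT 1 itself lay above WT 2 by a median of 0.14, while the same ratio over all genes tested was -0.01. Without WT 2 the family's median log2 fold change was 0.01.

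**Figure D3:**
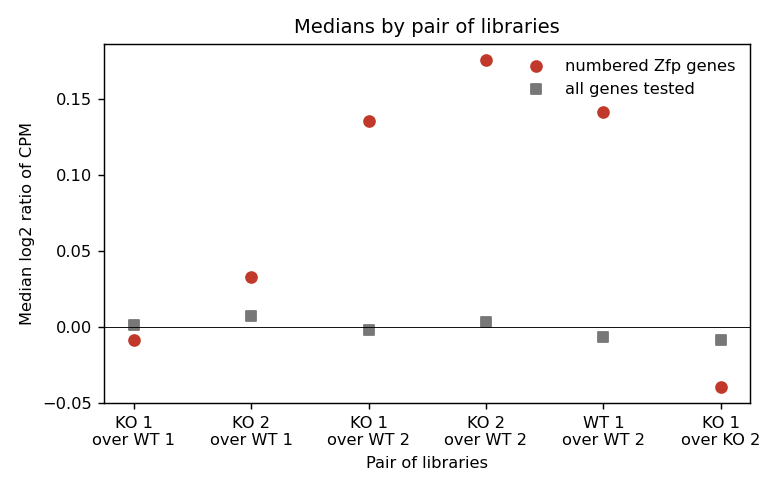
Median log2 ratio of CPM between pairs of libraries, for the numbered Zfp genes (red circles) and for all genes tested (grey squares). The red circles lie near 0 against WT 1, at 0.14 and 0.18 against WT 2, and at 0.14 for WT 1 over WT 2, whereas the grey squares stay near 0 in every pair.

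Some single genes also lay higher in WT 1 than in WT 2. Zfp936, a KRAB gene on chromosome 7, measured 65.5 CPM in WT 1 and 20.6 in WT 2, with 49.1 and 56.2 in KO. Zfp229, on chromosome 17, measured 69.0 CPM in WT 1 and 23.7 in WT 2, with 44.7 and 64.7 in KO. In both genes the WT libraries lay further apart than the KO libraries, and neither passed the test (adjusted p = 0.703 and 0.757). Of the 50-base runs at the ends of Zfp936, 14.8% occur in other genes, among them Zfp975, so part of its counts is uncertain.

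By position, 69 members lay in 16 clusters, defined as numbered Zfp genes at most 1 Mb apart with at least 3 members, and 81 lay outside. In clusters 4 members rose and 0 fell, or 5.80% and 0%, and outside 4 rose and 2 fell, or 4.94% and 2.47%. Over all genes tested 7.42% rose and 4.96% fell. The median log2 fold change was 0.21 in clusters and 0.04 outside, and this difference was not tested. Of the 16 cluster medians 13 were above 0 and 3 below, from -0.10 to 0.42. In 8 clusters the median was above 0 for each of the 4 pairs of a KO and a WT library. The median inside clusters was 0.11 without WT 2 and 0.10 without KO 2. The other genes tested within a cluster's span had a lower median than its members in 9 clusters and a higher one in 6, and the cluster of chromosome 18 held no other gene tested.

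Chromosome 7 carried 35 members in 7 clusters and elsewhere, and the 7 cluster medians were all above 0. The members of this chromosome had a median log2 fold change of 0.25, where all genes tested on it had -0.01, and the 115 members on other chromosomes had 0.07. For these 35 members WT 1 lay above WT 2 by a median of 0.19. Against WT 1 their median log2 ratio was 0.19 for KO 1 and 0.17 for KO 2, and against WT 2 it was 0.28 and 0.37. On chromosome 7 all 4 pairs of libraries thus gave a positive median, unlike in the family as a whole. Without KO 1 the median of the cluster at 27.7 to 28.4 Mb was -0.16, and without WT 2 that of the cluster at 41.6 to 43.6 Mb was 0.0049. The other genes in the span lay as high as the members or higher in 3 of the 7 clusters. Their median was 0.68 against 0.41 at 6.1 to 7.2 Mb, 0.28 against 0.28 at 29.8 to 30.2 Mb, and 0.28 against 0.24 at 41.6 to 43.6 Mb.

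Within the clusters of chromosome 7, neighbours moved to different degrees. At 127.2 to 127.9 Mb the median of 4 members was 0.42, and Zfp768 stood far above the rest, since Zfp668 had 0.48 (adjusted p = 0.287) and Zfp771 had 0.37 (adjusted p = 0.350). At 29.8 to 30.2 Mb, 6 members spanned from -0.76 in Zfp568 to 1.29 in Zfp566, and Zfp74 had 0.78 (adjusted p = 0.132). At 24.1 to 25.2 Mb all 4 members lay above 0, led by Zfp180 with 0.59 (adjusted p = 0.0892) and Zfp428 with 0.49 (adjusted p = 0.117), and their median was 0.37. At 12.4 to 13 Mb the median of 3 members was 0.39, and Zfp110 was the member that rose.

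On distal chromosome 4, at 145.5 to 147.8 Mb, 7 of 18 numbered Zfp genes were members, all with a KRAB-like box, and their median was 0.07, or -0.04 without KO 2 and -0.01 without WT 2. The 14 other genes in the span had a median of 0.40. Zfp992 rose, Zfp981 had 0.80 (18.6 CPM in both KO libraries, 13.1 and 8.16 in WT, adjusted p = 0.102), and Zfp979, the most abundant of them, had -0.22 (adjusted p = 0.406). Reads of several of these genes cannot be assigned with certainty. Of the 50-base runs at the transcript ends, 78.1% in Zfp534, 39.5% in Zfp988, 33.1% in Zfp979 and 31.5% in Zfp981 occur in other genes, and how such reads were counted is not given. In all, 13 members shared at least 20% of these runs, among them the abundant Zfp706 with 38.0%, and none of the 13 passed the test. Another 106 members shared none.

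The cluster at 32.8 to 33.6 Mb of chromosome 17 went the other way. Of its 9 members 6 lay below 0, and its median was -0.10. The 8 other genes tested in the span lay slightly lower, with a median of -0.12. It was the 1 cluster whose members had a median below 0 in each of the 4 pairs of libraries. Zfp81 measured 11.3 and 11.6 CPM in KO and 20.4 and 16.7 in WT (log2 fold change -0.70, adjusted p = 0.100), and Zfp472 measured 14.2 and 19.97 CPM in KO and 23.3 and 23.6 in WT (log2 fold change -0.46, adjusted p = 0.256). In both the groups did not overlap, and no member of the cluster passed the test. The cluster at 21.0 to 23.6 Mb of the same chromosome had a median of 0.19, and without WT 2 it was -0.29.

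In the remaining clusters no member passed the test. The cluster at 19.6 to 20.6 Mb of chromosome 9 had a median of 0.36, with 3 of its 4 members higher in both KO libraries, and its leading gene Zfp26 measured 40.3 and 33.0 CPM in KO and 26.7 and 22.7 in WT (log2 fold change 0.57, adjusted p = 0.111). The cluster at 47.8 to 48.6 Mb of chromosome 6 had a median of 0.29, against 0.45 for the 7 other genes tested in its span. Its leading gene Zfp282 measured 13.5 and 14.2 CPM in KO and 7.93 and 9.35 in WT (log2 fold change 0.68, adjusted p = 0.136). In the cluster at 67.0 to 67.8 Mb of chromosome 13, where 3 of 19 numbered Zfp genes were members, the median was -0.02. Zfp459 of that cluster measured 43.4 and 40.7 CPM in KO and 59.4 and 64.7 in WT (log2 fold change -0.56, adjusted p = 0.0663).

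**Figure D4:**
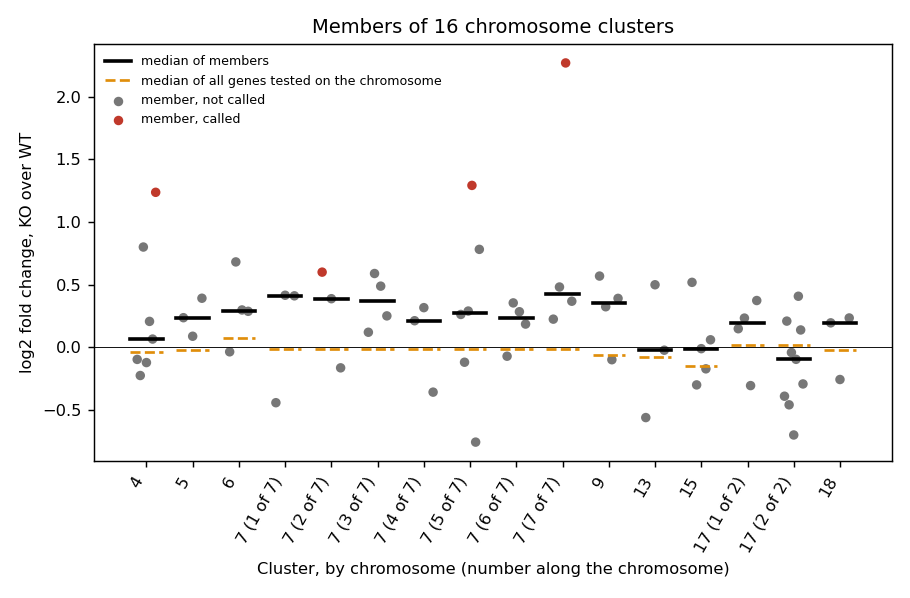
Log2 fold change of KO over WT for the members of the 16 clusters, by chromosome, with members that passed the test in red, the cluster's median as a black line and the median of all genes tested on that chromosome as a dashed orange line. All 7 clusters of chromosome 7 have a median above 0 and above the dashed line, and the second cluster of chromosome 17 has the lowest median, -0.10.

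Proteins were described from the coding sequences of GENCODE vM21. The members held a median of 9.5 C2H2 finger matches, from 0 to 36, with 0 in 2 members. A KRAB-like box was found in 57 members, or 38%, and in 170 of all 365 numbered Zfp genes, or 46.6%. The pattern misses some boxes, among them that of Zfp445, so these counts are low. Of the 57, 40 lay in clusters, and their proteins had a median of 11 fingers against 8 in the other 93 members. With the box 2 members rose (Zfp566 and Zfp992) and 1 fell (Zfp57), or 3.51% and 1.75%. The median log2 fold change with the box was 0.10. Without the box 6 rose and 1 fell, or 6.45% and 1.08%, with a median of 0.14. All these shares lay below the 7.42% and 4.96% of all genes tested. The median with the box was -0.01 without KO 2 and -0.02 without WT 2, and that without the box ranged from 0.11 to 0.18 when 1 library was left out.

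Sites for the seed shared by miR-291a-3p, miR-294-3p and miR-295-3p were present in the 3′ UTRs of 38 members, or 25.3%. The share was 20.9% among the 12491 genes tested that have a 3′ UTR. The 3′ UTRs of the members were also longer, with a median of 1701 bases against 1164. The 8-base site was present in 11 members, or 7.33%, against 3.47% of genes tested. Of the 38 members with a site 4 rose and 0 fell, and these 4 (Zfp422, Zfp827, Zfp704 and Zfp148) are those whose windows are printed above. Over all genes tested, 10.6% of those with a site rose and 3.30% fell, so the members' 10.5% was at the background. Of the 112 members without a site 4 rose and 2 fell, or 3.57% and 1.79%, against 7.31% and 5.59% of all genes without one. The median log2 fold change was 0.19 with a site and 0.08 without, where over all genes tested it was 0.11 with a site and -0.02 without. Without KO 2 the members had 0.08 with a site and 0.05 without, and without WT 2 they had 0.07 and -0.01. Of the 11 members with the 8-base site 9 lay above 0, with a median of 0.24, and 2, Zfp422 and Zfp148, rose, or 18.2%. The share that rose over all genes tested with the 8-base site was not counted, so this 18.2% has no background. The largest rises of the family, in Zfp768, Zfp566 and Zfp992, were in genes without a 7-base site in the longest 3′ UTR.

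The sites of some members lie in one recurring sequence, shown here with the windows of 4 members.
Most frequent window: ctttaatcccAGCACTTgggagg
Zfp459, base 1472 of 2450: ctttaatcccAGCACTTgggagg
Zfp568, base 1383 of 4635: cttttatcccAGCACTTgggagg
Zfp81, base 4232 of 4901: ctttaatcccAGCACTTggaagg
Zfp799, base 3775 of 3895: ccttaatccgAGCACTTgggagg
Among 3741 windows around AGCACTT in the 3′ UTRs of all genes, this one occurred 140 times, the next most frequent 14 times, and 357 windows, or 9.54%, lay within 3 mismatches of it. The same letters are known from the B1 family of short interspersed repeats. A site within 3 mismatches was present in 8 members, and it was the only kind of site in 7 of them.

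Members with these repeat-like sites lay lower than those with other sites. The median log2 fold change of the 8 was -0.28, 1 of them lay above 0, and none passed the test. The 31 members with at least 1 site of another kind had a median of 0.23, 25 of them lay above 0, and 4 rose, or 12.9%, where it was 10.9% of all genes tested with such a site. Over all genes tested, the 146 with repeat-like sites alone had a median of -0.03 and the 2461 with another site 0.12. This division was chosen after the values were seen and was not tested. Of the 8 members, Zfp459, Zfp568 and Zfp81 are the ones already described as lower in both KO libraries, and the windows of all 3 are printed above. Zfp81 also holds a site of another kind, so it counts in both groups. Zfp141 and Zfp617, whose windows are not printed, match the frequent window exactly and had log2 fold changes of -0.07 and 0.10. Zfp229, with 4 mismatches, lay just past the limit and had 0.23.

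**Figure D5:**
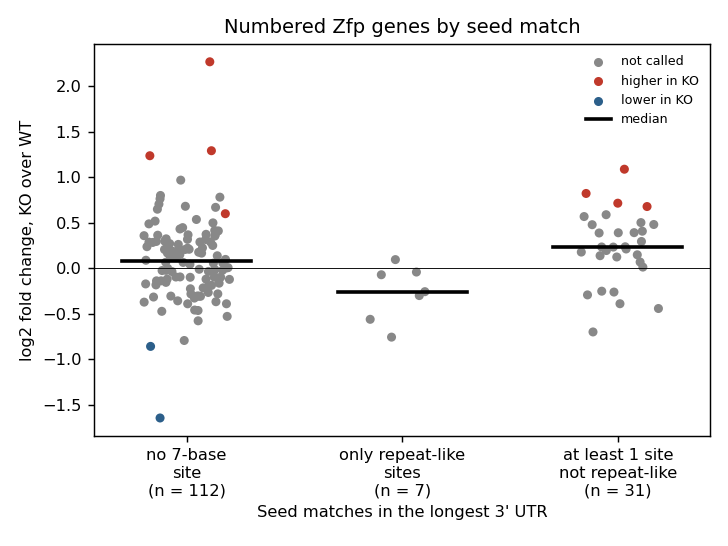
Log2 fold change of KO over WT for the numbered Zfp genes by seed match in the longest 3′ UTR, with a black line at each median. The 7 genes with repeat-like sites alone centre on -0.26, the 31 with at least 1 other site on 0.23, and the 112 without a site on 0.08. The ranges of the 3 classes overlap.

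Genes that act with KRAB zinc finger proteins at heterochromatin were followed beside the family. Of 38 such co-repressor genes, all tested, 1 rose and 1 fell in KO, and their median log2 fold change was 0.04. These are 2.63% in each direction, below the 7.42% and 4.96% of all genes tested. Trim28 measured 853 and 954 CPM in KO and 1136 and 1188 in WT, with no overlap, but its log2 fold change of -0.36 did not pass the test (SE 0.13, adjusted p = 0.103). Setdb1, the histone methyltransferase that TRIM28 recruits, overlapped between the groups, with 47.5 and 51.8 CPM in KO and 52.1 and 44.9 in WT. Mta3, a NuRD subunit, rose from 82.2 and 71.1 CPM in WT to 117 and 126 in KO (log2 fold change 0.67, adjusted p = 0.0279). Morc3, an ATPase of silent chromatin, fell from 80.3 and 70.8 CPM to 48.1 and 50.1 (log2 fold change -0.62, adjusted p = 0.0427). Neither call held without KO 1 (adjusted p = 0.127 and 0.294) or without KO 2 (adjusted p = 0.209 and 0.237), and that of Morc3 was also lost without WT 1. Chd3, a NuRD remodeller, and the remodeller Hells lay next to the threshold, with log2 fold changes of 0.87 (adjusted p = 0.0506) and -0.43 (adjusted p = 0.0599).

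Other zinc finger families were chosen by symbol and the same summed count. Of 28 Zbtb genes, whose proteins join a BTB domain to the fingers, 2 rose and 0 fell. The 2 are 7.14%, near the 7.42% of all genes tested. Their median log2 fold change was 0.24, or 0.09 without KO 2 and 0.11 without WT 2. Like the numbered Zfp genes they lay higher in WT 1 than in WT 2, by a median of 0.20. Of 5 Zkscan genes 1 rose and 0 fell, with a median of 0.28, and of 4 Zscan genes none passed the test, with a median of -0.10. The families were not tested against each other.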

How the data were processed

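The authors deposited raw counts per Ensembl gene identifier for 4 libraries in 1 table, whole numbers without normalization. Libraries were made with the QuantSeq 3′ FWD kit from Trizol RNA, per the labels' protocols. The submitters' processing notes list Trim Galore and GRCm38. Aligner, counter, strand setting and annotation release were not given in the sources used here. Identifiers were named with GENCODE vM21, which held 55240 of 55421, and the other 181 carried 0.0025% of counts.

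The fit of KO against WT used edgeR 4.0.16 in R 4.3.3 (two-sided quasi-likelihood F test, TMM, filterByExpr), with p-values adjusted by Benjamini-Hochberg over all 14427 genes past the filter and a threshold of 0.05. All 150 members passed the filter. The biological coefficient of variation was 0.198. Each SE was obtained from the F statistic, as log2 fold change over its square root. A depth of 3 counts equals 0.236 to 0.302 CPM per library. Ratios between libraries used a prior of 0.5 CPM. Counts differed within groups by 12.2 (KO) and 20.3 (WT) chi-square per degree of freedom, so no library repeats another.

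Sequences, proteins and sites came from GENCODE vM21 and RefSeq with Python 3.11.15. No protein table was used, and the KRAB-like box was searched with a pattern widened after the data were seen, since the first found 38 members. Repeat-like means at most 3 mismatches to the most frequent window. The fit was tested on simulated data.

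Members, lists and tests were chosen with earlier results of these data known. Genes were named by a rule: the called members with the largest change whose groups do not overlap, up to 3 members per cluster with the smallest p, the 5 with the highest mean CPM, those at the count limit, members with a known function, 4 co-repressor genes with the smallest p, Trim28 and Setdb1. Outside it are the genes with repeat-like sites, or whose 3′ ends are shared, and the markers Klf4, Pax6 and Vim. They were named after their values were seen. Alternatives were DESeq2 1.42.0 size factors, library totals, a replicate block, the test of DESeq2, genes unfiltered or filtered at 10 CPM on average, other limits for members and clusters, and each library left out. Removing chromosome medians was added after the data were seen.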

Additional observations from a re-analysis of the deposited data

How the results depend on the processing

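With 2 libraries per group, each single library weighed on the counts. Leaving out 1 library at a time gave 2 to 19 members higher in KO and 1 to 8 lower, with 2 higher members without KO 1, 3 without KO 2 and 19 without WT 1, and 8 lower ones without WT 2. It gave 556 to 1477 genes higher and 285 to 1011 lower over all genes tested, 0 to 5 co-repressor genes higher and 0 to 2 lower. The members' median ranged from 0.0125 to 0.19. Cluster medians ranged from -0.30 to 0.15 (chromosome 13), -0.13 to 0.21 (15), -0.29 to 0.45 (first of 17), 0.01 to 0.35 (18), -0.04 to 0.20 (4), 0.19 to 0.38 (5), 0.19 to 0.41 (6) and, on chromosome 7, 0.24 to 0.50 (from 6.1 Mb), 0.24 to 0.51 (from 24.1 Mb), -0.16 to 0.14 (from 27.7 Mb), 0.0049 to 0.52 (from 41.6 Mb) and 0.28 to 0.77 (from 127.2 Mb). Zfp229 ranged from -0.34 to 1.201, Zfp936 from -0.32 to 1.35 and Setdb1 from -0.0699 to 0.14. Without the low-count filter 4 members and 1193 genes were lower, and 3 co-repressor genes were higher and 3 lower. The DESeq2 test called 2 co-repressor genes higher. With a mean CPM of at least 10, which leaves fewer genes, 636 genes were higher and 391 lower, 6 members were higher, and Zfp148 and Zfp110 lost their calls. With DESeq2 size factors 7 members were higher, and Zfp110 lost its call. The DESeq2 test called 10 members higher and 3 lower. With chromosome medians removed the cluster of chromosome 6 had 0.22.

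With the replicate number as a block, 6 members were higher and 2 lower, 638 genes higher and 370 lower, and 0 co-repressor genes in each direction. Zfp148, Zfp110, Mta3 and Morc3 lost their calls. The deviations of same-numbered libraries had a correlation of -0.07, and it is not stated whether the numbers mark pairs. The causes of these shifts were not tested.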
